A study of Mus musculus with 6 samples.

Results

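The genes examined were those that encode the protein subunits of the respiratory chain and of ATP synthase in mouse intestinal stem cells. They were taken by gene symbol. These were the protein-coding genes of mitochondrial DNA (mtDNA), the Nduf genes, placed in complex I by symbol, and Sdha to Sdhd of complex II. The rest were the Uqcr genes and Cyc1 of complex III and the Cox4 to Cox8 genes of complex IV. The Atp5 genes of ATP synthase, here called complex V, completed the choice. The symbols matched 110 genes, 8 pseudogenes marked -ps were left out, and 102 of the 53379 counted genes remained. Of these, 13 are encoded in mtDNA and 89 in the nucleus.

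RNA was sequenced from crypt cells of C57BL/6 mice that were sorted for high Lgr5-EGFP fluorescence, from the proximal small intestine, in 3 control libraries and 3 libraries labelled Klf5-KO. Control mice carried Lgr5-EGFP-IRES-CreERT2 and Rosa-tdTomato. The other mice carried Klf5fl/fl besides both of these alleles, which is the floxed form that Cre can delete. All mice of both groups received tamoxifen, which activates this form of Cre, 1 mg on each of 5 days. How far Cre had acted was not tested. Cre was driven from the Lgr5 locus and so acts in Lgr5-expressing cells. Neither the age of the mice nor the number of mice behind each replicate is given in the labels. The spread that enters the tests is that between libraries, and it may be technical. Levels are given as CPM, the counts of a gene scaled to the size of its library. Klf5 itself measured 480, 512 and 546 CPM in control replicates 1, 2 and 3 and 880, 918 and 877 CPM in those labelled Klf5-KO, a log2 fold change of 0.80 (SE 0.10, adjusted p = 6.3e-04). The counts of the targeted gene thus went against the label, and the counts cannot tell its floxed exons from the rest. Directions below are those of the libraries as labelled.

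Depth was 61563625 to 77666540 counts, and a count of 0 allowed up to 0.0386 to 0.0487 CPM (3 counts, counting error only). Stem cell markers were present in all libraries, at a summed 8698 to 12010 CPM in the control group and 4427 to 5856 CPM in those labelled Klf5-KO, with 7 of 10 lower by the edgeR test. Of all tested genes, 13.3% were higher and 12.5% lower by that test. The summed level of 12 enterocyte markers was 1347 to 1671 CPM against 2524 to 4154 CPM, with 7 of 12 higher. Goblet markers (2393 to 2667 CPM against 1172 to 1521 CPM, 3 of 7 lower) and enteroendocrine markers (151 to 304 CPM against 86.4 to 97.8 CPM, 6 of 9 lower) were at lower levels, and tuft cell markers (92.8 to 116 CPM against 135 to 245 CPM, 5 of 8 higher) at higher ones. The 12 Paneth cell markers were spread from 1792 to 21518 CPM among the control libraries, the highest being control replicate 3, against 9966 to 12402 CPM. By edgeR 0 of the 12 passed and 0 had an unadjusted p under 0.05, and 11 log2 fold changes were above 0. No marker of these types was at 0 in all libraries. Enterocytes, Paneth cells and stem cells differ in their use of mitochondria, and the part of cell makeup in the results below was not tested. In sorted bulk cells, fewer cells of a type and less RNA per cell cannot be told apart.

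Complex I (NADH dehydrogenase) and complex II (succinate dehydrogenase) pass electrons to ubiquinone, complex III passes them on to cytochrome c, and complex IV reduces oxygen. Complexes I, III and IV pump protons, and complex V uses the gradient to make ATP. All complexes except II join subunits from both genomes, and mtDNA is transcribed from both strands as long precursors that are cut at tRNA genes. Crypt base stem cells are known for active mitochondria, and their oxidative metabolism bears on their renewal.

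A stretch of chromosome 1 holds a near-identical copy of part of mtDNA, which bears on how the 13 mtDNA genes could be counted. The 7 annotated gene copies there lie in mtDNA order between positions 24611535 and 24616197 of chromosome 1 (mm10). Of the 50-base words of mt-Co2, mt-Co3, mt-Atp6, mt-Nd3 and mt-Nd4l, 98.0 to 100% also occur in other annotated transcripts, against 62.2% for mt-Nd4, 51.1% for mt-Co1, 8.19% for mt-Nd2 and 7.61% for mt-Nd5. No such word was shared for mt-Nd1, mt-Nd6, mt-Cytb or mt-Atp8. The aligned 681 bases of mt-Co2 and its copy Gm28661, the 783 of mt-Co3 and Gm28437, the 678 of mt-Atp6 and Gm10925, the 294 of mt-Nd4l and Gm10222, and the 876 of mt-Nd4 and Gm28439 are identical. The other copies differ from mtDNA at 1 base each. Both follow here with the differing base in capitals, each as 60 bases on the coding strand, to show how little separates a mitochondrial read from a nuclear one. The mt-Co1 stretch is chrM:6390-6449 and carries A1066T, where the mtDNA base comes first and positions are counted from the first base of the gene. The mt-Nd3 stretch is chrM:9459-9518 and carries T3C, counted in the same way.

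mt-Co1: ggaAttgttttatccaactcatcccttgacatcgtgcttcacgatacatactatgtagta
Gm29216: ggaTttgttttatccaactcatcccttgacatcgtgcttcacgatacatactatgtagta
mt-Nd3: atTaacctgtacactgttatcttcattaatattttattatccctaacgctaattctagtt
Gm28438: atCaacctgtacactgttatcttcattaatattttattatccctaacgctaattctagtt

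The search covered annotated transcripts alone, and unannotated nuclear copies of mtDNA were not looked for. Per kilobase of exon, the control means were 7940 CPM for mt-Co1 (catalytic subunit of complex IV), 3877 CPM for mt-Cytb (cytochrome b of complex III) and 2726 CPM for mt-Nd1, then 1374 CPM for mt-Nd4, 877 CPM for mt-Nd5, 747 CPM for mt-Nd2 and 311 CPM for mt-Nd6. The 5 genes copied over nearly their whole length lay far below, at 32.9 CPM for mt-Co2, 32.3 CPM for mt-Co3, 26.6 CPM for mt-Atp6, 15.6 CPM for mt-Nd3 and 6.54 CPM for mt-Nd4l. Counts on mt-Co1 made up 51.8% ± 2.7 of all counts on the 13 genes in the control libraries and 50.4% ± 0.62 in the others (SD, n = 3 each). The gene mt-Atp8, at 13.5 CPM per kilobase, shares no word with an annotated gene, but it lies between mt-Co2 and mt-Atp6, and the unannotated gap between their 2 copies on chromosome 1 is 233 bases long, against 230 bases in mtDNA. It also overlaps mt-Atp6 by 43 bases, and mt-Nd4l overlaps mt-Nd4 by 7. The counting command in the file headers names no option for reads that map to several places, and the sources used here give no read length. The annotated copies on chromosome 1 cover only part of mt-Co1 and mt-Nd4 (483 of 1545 and 876 of 1378 bases), which were at high levels. Words of mt-Co1 were shared with 3 annotated genes, so more of it than these 483 bases also occurs elsewhere. Low mt-Atp8 shares no word with annotated transcripts, the only ones searched. The part of the copies in the low levels of these 6 genes was not tested, and their levels and fold changes are uncertain.

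**Figure D1:**
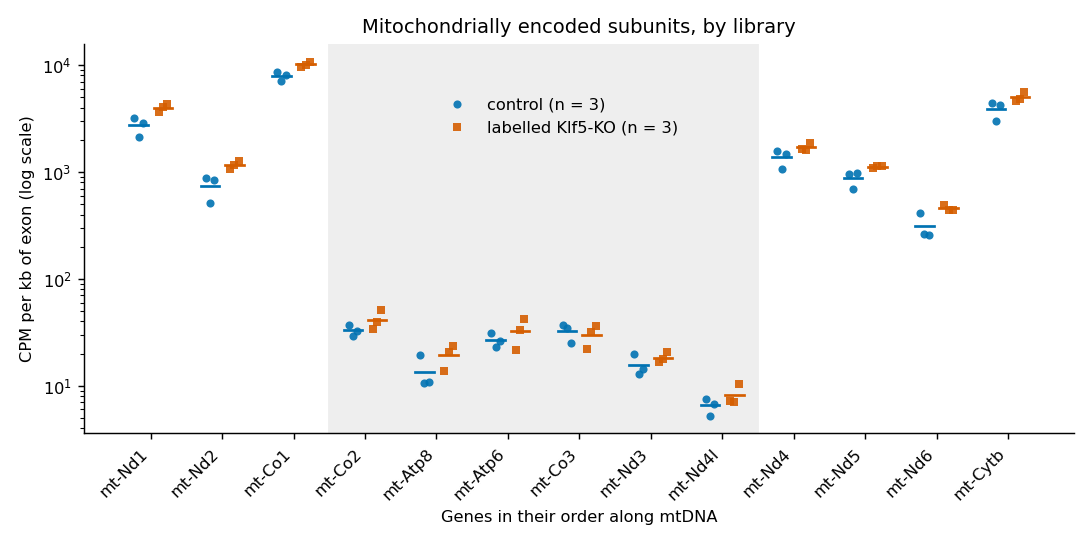
Level of each mtDNA-encoded subunit gene in CPM per kilobase of exon (log scale), in gene order along mtDNA, for the 3 control libraries (circles) and the 3 libraries labelled Klf5-KO (squares), with the group mean as a line. The grey band marks the 6 genes from mt-Co2 to mt-Nd4l, whose control means are 6.54 to 32.9, against 311 to 7940 for the 7 genes outside it.

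Among the mtDNA genes, 3 subunits of complex I rose in the libraries labelled Klf5-KO and none of the 13 fell. The tests gave 3 of 13 higher where 13.3% of all 19339 tested genes were higher, and 0 of 13 lower where 12.5% were lower. At an unadjusted p under 0.05, 5 of the 13 were higher and 0 lower, and DESeq2 and limma-voom also called 0 lower. The median log2 fold change was 0.34, against -0.01 over all tested genes, and 12 of 13 fold changes were above 0. The 13 genes share libraries and precursors and are not independent replicates.

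The genes that rose have no annotated full nuclear copy. The complex I subunit gene mt-Nd2 (chrM:3914-4951) measured 917, 533 and 876 CPM in control replicates 1, 2 and 3 and 1116, 1215 and 1329 CPM in those labelled Klf5-KO. The groups did not overlap, and control replicate 2 was the lowest library. Its log2 fold change was 0.65 (SE 0.19, adjusted p = 0.034). The neighbouring mt-Nd1 (chrM:2751-3707), at 3050, 2022 and 2753 CPM against 3450, 3907 and 4105 CPM, showed the same order of groups, with a log2 fold change of 0.55 (SE 0.17, adjusted p = 0.039).

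The light strand of mtDNA carries a single protein gene, mt-Nd6 (chrM:13552-14070), and it rose as well. It measured 215, 137 and 132 CPM in the control libraries and 253, 231 and 230 CPM in the others, a log2 fold change of 0.56 (SE 0.17, adjusted p = 0.039). Here control replicate 1, not 2, stood apart from the other control libraries.

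Most of the remaining abundant mtDNA transcripts had higher means without passing the test. Cytochrome b, mt-Cytb, measured 5035, 3442 and 4829 CPM against 5284, 5473 and 6420 CPM (0.37 on the log2 scale, SE 0.17, adjusted p = 0.15). The most abundant gene, mt-Co1, measured 13442, 10883 and 12476 CPM against 14884, 15654 and 16638 CPM (0.36, SE 0.15, adjusted p = 0.11). For mt-Nd5 the values were 1752, 1277 and 1772 CPM against 1978, 2062 and 2054 CPM (0.34, adjusted p = 0.11), and for mt-Nd4 they were 2164, 1469 and 2048 CPM against 2239, 2228 and 2573 CPM (0.31, adjusted p = 0.19). In each of these 4 genes control replicate 2 was lowest and the groups did not overlap. In all, 7 of the 13 genes had every value of the libraries labelled Klf5-KO above every control value, where 22.2% of all tested genes did. These 7 are not independent of each other either. The 6 genes at low levels overlapped between groups, with log2 fold changes of 0.51 for mt-Atp8, 0.33 for mt-Co2, 0.32 for mt-Nd4l, 0.28 for mt-Atp6, 0.22 for mt-Nd3 and -0.10 for mt-Co3.

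The mtDNA calls were near the threshold. No mtDNA gene was called without control replicate 2 or without any one of the 3 libraries labelled Klf5-KO, 1 was called without control replicate 3, and 4 were called without control replicate 1. DESeq2 called 6 higher, limma-voom 4, and edgeR without a filter on low counts 7. The sizes held where a library labelled Klf5-KO was left out, with log2 fold changes of 0.50 to 0.62 for mt-Nd1, 0.59 to 0.72 for mt-Nd2 and 0.52 to 0.60 for mt-Nd6. Without control replicate 2 they were 0.40, 0.44 and 0.46, and without control replicate 3 mt-Nd6 had 0.43.

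In control replicates 1, 2 and 3 the 13 genes took 2.69, 1.97 and 2.51% of all counts, and in the libraries labelled Klf5-KO they took 2.99, 2.98 and 3.35%. The means were 2.39% ± 0.37 (SD, n = 3) and 3.11% ± 0.21 (SD, n = 3), with counting intervals (Wilson, 95%) no wider than 0.00415 percentage points to either side. All libraries of the group labelled Klf5-KO lay above all control libraries, and with control replicate 2 left out the difference in means went from 0.721 to 0.511 percentage points. The nuclear subunit genes did not show such a difference in total. Their summed level was 10652, 11236 and 12167 CPM in the control libraries and 11048, 11673 and 12319 CPM in the others, with means of 11352 ± 764 and 11680 ± 635 CPM (SD, n = 3 each). That difference of 328 CPM was smaller than either SD, and it was -21.3 CPM without control replicate 1. The ratio of the mtDNA sum to the nuclear sum was 2.11 ± 0.37 in the control libraries, with control replicate 2 lowest at 1.77, and 2.67 ± 0.040 in the others, where it lay between 2.64 and 2.72 (SD, n = 3 each).

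**Figure D2:**
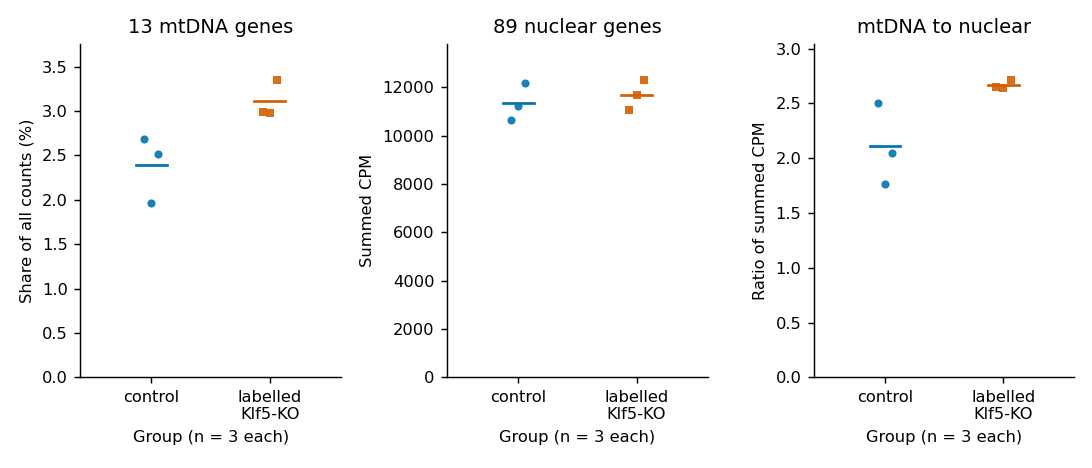
Share of all counts on the 13 mtDNA-encoded genes (left, percent), summed level of the 89 nuclear-encoded genes (middle, CPM) and ratio of the summed mtDNA to nuclear CPM (right), each point a library and each line a group mean of 3. The mtDNA share is 1.97 to 2.69% in the control libraries and 2.98 to 3.35% in the others, while the nuclear sums overlap.

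Of the 89 nuclear-encoded genes 82 were tested, and in the libraries labelled Klf5-KO 12 rose and 4 fell. Those that rose encode small subunits such as Uqcrq of complex III, Ndufa1 of complex I and the c subunit gene Atp5g3 of ATP synthase. Among those that fell were Sdhb, Cox7a2l and the low Cox4i2. The counts correspond to 14.6% higher, where 13.3% of all tested genes were higher, and 4.88% lower, where 12.5% were lower. The share higher was thus near that of all genes. The median log2 fold change was 0.09, against -0.01 over all tested genes, with 60 values above 0 and 22 below. In 20 of the 82 every value labelled Klf5-KO was above every control value and in 8 below, where 22.2% and 21.0% of all tested genes were. Without control replicate 3, which held the most Paneth cell transcripts of the control group, 25 rose, and 15 of the 16 calls remained. Without control replicate 1, control replicate 2 or the library labelled Klf5-KO replicate 3, the number that rose was 6, 5 and 4. The number that fell was 2 without control replicate 2, 1 without the library labelled Klf5-KO replicate 1 or 2, and 2 without replicate 3 of that group. The calls of Uqcrq, Ndufa1, Atp5g3, Atp5e and Cox4i2 were kept whichever library was left out. With 1 library left out, the call of Ndufa6 was lost in 1 of 6 cases, that of Ndufc1 in 2, those of Ndufa2 and Atp5k in 3, those of Uqcrb, Cox6b2 and Sdhb in 4, and those of Ndufb6, Atp5l and Cox7a2l in 5.

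**Figure D3:**
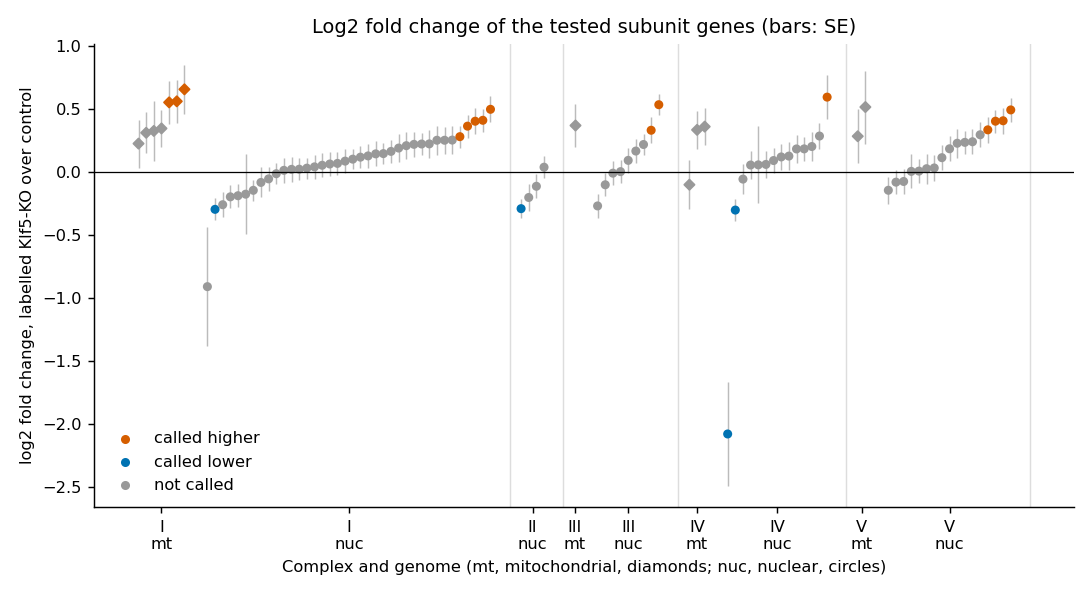
Log2 fold change of the libraries labelled Klf5-KO over control for the 95 tested subunit genes, sorted within each complex and genome, with the SE as a bar. Diamonds are mtDNA genes and circles nuclear genes. Genes that passed the test are in orange (higher) and blue (lower), and the lowest point is Cox4i2 at -2.08.

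Of the genes placed in complex I by their Nduf symbol, Ndufa4 among them, 5 of 38 tested nuclear genes rose and 1 fell. These are 13.2% and 2.63%, so the share that rose was that of all tested genes. All 5 encode accessory subunits. In this complex, core subunits carry the cofactors and have bacterial counterparts, while accessory subunits surround them. The small membrane-anchored subunit gene Ndufa1 (chrX:37187588-37191163) measured 27.4, 26.4 and 33.2 CPM in the control libraries and 41.3, 39.6 and 41.8 CPM in those labelled Klf5-KO. The groups were well apart, with a log2 fold change of 0.50 (SE 0.10, adjusted p = 0.0082). Ndufa6 (chr15:82350139-82354291), an accessory subunit of the arm that enters the matrix, measured 56.9, 52.2 and 62.3 CPM against 73.0, 74.1 and 80.3 CPM, and its log2 fold change was 0.41 (SE 0.09, adjusted p = 0.011).

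The other 3 complex I genes that rose did so by less. Ndufa2 had a log2 fold change of 0.40 (37.3, 35.0 and 44.2 CPM against 49.2, 52.6 and 52.0 CPM, adjusted p = 0.019). Ndufc1 had 0.36 (30.7, 28.8 and 31.4 CPM against 36.6, 38.1 and 42.1 CPM, adjusted p = 0.018). Ndufb6 had 0.28 (28.3, 29.9 and 31.5 CPM against 34.6, 36.4 and 38.0 CPM, adjusted p = 0.042). Its call is the least firm, lost in 13 of 19 alternative analyses, and 31.6% of its 50-base words also occur in another gene, mostly Smim27.

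Of the core subunit genes, Ndufs1 had a log2 fold change of -0.20, Ndufv1 -0.19 and Ndufs7 0.07, and none of these passed the test. The median was -0.06 over the 7 core genes and 0.14 over the 29 accessory genes. The other tested accessory genes lay between -0.26 for Ndufa9 and 0.25 for Ndufa13, and 2 gene copies with low counts, Ndufb4c and Ndufa11b, had -0.18 and -0.91 without passing.

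Complex II, which is also the succinate dehydrogenase of the citric acid cycle, has no mtDNA subunit. Its iron-sulfur subunit gene Sdhb (chr4:140961203-140979193) measured 149, 145 and 151 CPM in the control libraries and 120, 119 and 125 CPM in those labelled Klf5-KO. The replicates lay close together and the groups apart, with a log2 fold change of -0.29 (SE 0.07, adjusted p = 0.019). The flavoprotein gene Sdha had -0.11 (334, 351 and 329 CPM against 301, 291 and 345 CPM), and the membrane anchor genes Sdhc and Sdhd had -0.20 and 0.04, none of them passing. The summed level of the 4 genes was 688, 732 and 696 CPM against 613, 617 and 696 CPM.

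In complex III, 2 of 9 genes rose and 0 fell (22.2% and 0%, against 13.3% and 12.5% of all tested genes). Both genes that rose are accessory. Uqcrq (chr11:53427922-53430831), a small subunit that lies beside cytochrome b, had the smallest adjusted p of all 102 genes. It measured 131, 127 and 142 CPM in the control libraries and 190, 194 and 195 CPM in those labelled Klf5-KO, a log2 fold change of 0.53 (SE 0.08, adjusted p = 0.0017), or 1.45-fold. Over 19 alternative analyses its log2 fold change was between 0.50 and 0.58, and it was called in all of them. Uqcrb, another small subunit, measured 56.4, 51.6 and 60.1 CPM against 63.2, 68.7 and 79.3 CPM (0.33, adjusted p = 0.045), and 25.5% of its words are shared with other genes. Its call was lost in 8 of 19 alternative analyses, among them the leaving out of control replicate 1 or 2 or of the library labelled Klf5-KO replicate 2 or 3.

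The core of complex III did not move with them. The gene of cytochrome c1, Cyc1, had a log2 fold change of 0.09, that of the Rieske iron-sulfur protein, Uqcrfs1, had -0.01, and the core protein genes Uqcrc1 and Uqcrc2 had -0.10 and -0.27. Uqcrc2 was nearest to the threshold, at 199, 223 and 204 CPM against 159, 172 and 188 CPM (adjusted p = 0.060). The small Uqcr11, the highest nuclear gene of the complex per kilobase (control mean 228 CPM), had 0.16 without passing.

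Among the 14 tested nuclear genes placed in complex IV by their symbol, Cox7a2l among them, 1 rose and 2 fell. These are 7.14% and 14.3%, against 13.3% and 12.5% of all tested genes. Of these, the genes at the highest levels per kilobase, Cox8a (control mean 430 CPM) and Cox6a1 (357 CPM), had log2 fold changes of 0.06 and 0.12 and did not pass. Cox7a2l (chr17:83501919-83514333) measured 145, 168 and 166 CPM against 122, 131 and 136 CPM, a log2 fold change of -0.30 (SE 0.09, adjusted p = 0.035). Its call was lost when any library except control replicate 1 was left out.

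The other calls of complex IV concerned isoforms that stand in for a common subunit in certain tissues. Cox4i2 (chr2:152754173-152765037), the isoform of subunit 4 known from lung, from smooth muscle and from hypoxic cells, had 30, 39 and 52 counts in the control libraries and 6, 10 and 12 in the others. In CPM, control replicates 1, 2 and 3 had 0.412, 0.506 and 0.839 and the libraries labelled Klf5-KO had 0.0876, 0.156 and 0.166, a log2 fold change of -2.08 (SE 0.41, adjusted p = 0.0063). This was the largest change of any tested subunit gene, at a very low level: per kilobase of exon the control mean was 0.743 CPM, against 257 CPM for the common isoform Cox4i1, which had a log2 fold change of -0.06 and did not pass. Muscle markers were lower in the same libraries, while markers of leukocytes, fibroblasts and endothelium were mixed. The summed level of 9 muscle markers was 8.11 to 11.7 CPM in the control libraries and 3.85 to 5.14 CPM in the others. Of these, 3 of 5 tested were lower, where 12.5% of all tested genes were. Skeletal muscle Acta1 made up most of that sum (control mean 7.06 of 9.68 CPM). Also lower were skeletal muscle Ckm (control mean 1.10 CPM) and smooth muscle Myh11 (0.368 CPM). The 11 leukocyte markers summed to 6.86 to 23.2 CPM and 11.1 to 14.0 CPM, and 0 of 7 tested passed by edgeR (DESeq2 called 1 higher). The 9 markers of fibroblasts and endothelium summed to 3.64 to 5.60 CPM and 2.45 to 3.02 CPM. Of their 4 tested genes Pdgfrb, which pericytes express, fell from 2.46 ± 0.54 to 0.467 ± 0.078 CPM (SD, n = 3 each), while Col1a2 rose from 0.0434 ± 0.028 to 0.643 ± 0.20 CPM. The part of such cells in the Cox4i2 result was not tested.

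Cox6b2, best known from testis, measured 2.86, 3.46 and 3.73 CPM against 4.44, 5.09 and 5.61 CPM, a log2 fold change of 0.59 (SE 0.17, adjusted p = 0.034). Its common partner Cox6b1 lay far above it, at 158, 181 and 209 CPM against 196, 215 and 219 CPM (0.20, not passing). Cox7a1, the muscle and heart isoform, had 0.06, and its partner Cox7a2 0.18, neither passing. The isoform genes Cox6a2 and Cox8b, and Ndufa4l2, placed in complex I by its symbol, had at most 0.187 CPM in any library. They were not tested, and Cox7b2 and Cox8c had no count in any library. The gene copies Cox6c2 and Ndufs6b were not tested either, which accounts for the 7 untested genes.

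**Figure D4:**
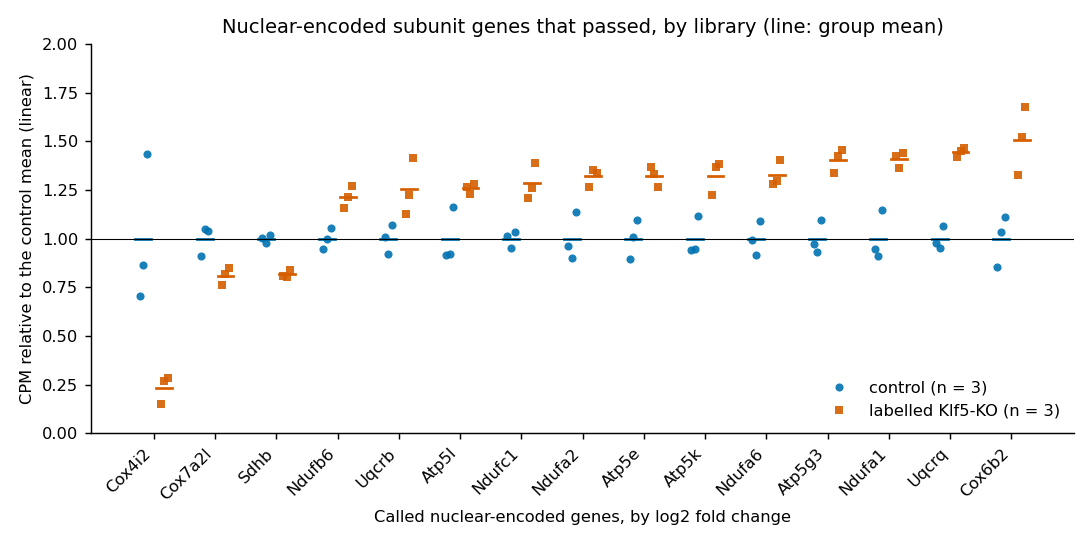
Level of 15 nuclear-encoded genes that passed the test, as CPM divided by the control mean of the gene (linear scale), for the 3 control libraries (circles) and the 3 libraries labelled Klf5-KO (squares), with group means as lines. The groups do not overlap in any of the 15, and the 12 that rose did so by 1.21 to 1.51-fold.

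Of the 17 genes placed in complex V by their symbol, the associated gene Atp5s among them, 4 rose and none fell. These are 23.5% and 0%, against 13.3% and 12.5% of all tested genes. By edgeR at an unadjusted p under 0.05, 7 were higher and 0 lower, and DESeq2 and limma-voom also called 0 lower. The c subunit, which forms the rotating ring in the membrane, is made as the same mature protein from 3 genes. One of them, Atp5g3 (chr2:73908447-73911326), measured 218, 208 and 245 CPM in the control libraries and 298, 319 and 325 CPM in those labelled Klf5-KO, a log2 fold change of 0.49 (SE 0.09, adjusted p = 0.0050). Atp5g1 had 0.23 (118, 125 and 140 CPM against 145, 156 and 149 CPM, adjusted p = 0.085), and Atp5g2 had 0.00 (58.7, 67.1 and 84.9 CPM against 63.8, 76.6 and 70.7 CPM). Of the CPM per kilobase of the 3 genes, Atp5g3 held 62.9, 59.3 and 58.6% in the control libraries and 66.9, 65.4 and 67.3% in the others. Of the words of Atp5g2 38.4% are shared with other genes, while none of Atp5g3 are.

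The other genes of complex V that rose also encode short proteins. Atp5e (chr2:174461072-174464105), for the epsilon subunit of the central stalk, measured 84.9, 95.5 and 104 CPM against 129, 126 and 120 CPM (0.40 on the log2 scale, SE 0.09, adjusted p = 0.013). Atp5k and Atp5l, for the membrane subunits e and g that help to join ATP synthase into dimers, had 0.40 (25.8, 25.9 and 30.6 CPM against 33.6, 37.5 and 38.0 CPM, adjusted p = 0.018) and 0.33 (53.9, 54.1 and 68.3 CPM against 74.4, 72.3 and 75.3 CPM, adjusted p = 0.044). The call of Atp5l was lost in 11 of 19 alternative analyses.

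The catalytic head showed no such rise. Its subunit genes Atp5a1 and Atp5b, the highest nuclear genes of the complex per kilobase (control means 370 and 341 CPM), had log2 fold changes of -0.15 and 0.02. For Atp5b the values were 1329, 1438 and 1562 CPM against 1366, 1461 and 1576 CPM. The stalk and head genes Atp5c1, Atp5d and Atp5o had 0.01, -0.08 and -0.08. The stalk genes Atp5h, Atp5f1 and Atp5j had 0.03, 0.11 and 0.24, and none of these genes passed. For Atp5j every value labelled Klf5-KO was above every control value.

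Within the nuclear genes, fold change varied with the size of the encoded protein. Of 80 tested genes with an annotated coding sequence, the 45 with at most 450 coding bases included all 12 that rose and 1 that fell (Cox7a2l), with a median log2 fold change of 0.22. The 35 longer ones included 0 that rose and 3 that fell, with a median of -0.02. For those 35, edgeR at an unadjusted p under 0.05 had 1 higher, and DESeq2 and limma-voom called 0 higher. Across the 80 genes the log2 fold change and the log2 of the coding length had a Pearson correlation of -0.43 and a Spearman correlation of -0.67, over genes that share libraries and are not independent replicates. Over all 14104 tested protein-coding genes the same values were -0.04 and -0.07. Short genes in general leaned the same way: of 1055 with at most 450 coding bases 16.8% rose and 8.15% fell, with a median of 0.11, against 13.3% and 14.8% and a median of -0.04 for the 13049 longer ones. Cytosolic ribosomal protein genes, another class of abundant transcripts, did not: 0 of 81 rose and 5 fell by edgeR, with a median of -0.12. They were taken without a limit on coding length, so they are not a like set to the short genes. At an unadjusted p under 0.05, 2 of the 81 were higher and 16 lower, and DESeq2 and limma-voom called 0 higher. The length limit and the division below were chosen after the values were seen, and no test was made of them. The 27 core genes had a median of 0.00 with 2 that rose and 2 that fell (7.41% each). The 49 accessory genes had a median of 0.16 with 9 and 1 (18.4% and 2.04%). Of all tested genes 13.3% rose and 12.5% fell. The description of core subunits given for complex I need not hold in the other complexes, where the class includes Uqcrc1, Uqcrc2, Atp5e and Atp5j. Of the core genes 22 of 27 had over 450 coding bases, against 11 of the 49 accessory genes. Among the 5 short core genes 2 rose, with a median of 0.24, and among the 38 short accessory genes 9 rose and 1 fell, with a median of 0.20. Of the 22 long core genes 0 rose and 2 fell, with a median of -0.07, and of the 11 long accessory genes 0 rose and 0 fell, with a median of 0.04. At an unadjusted p under 0.05 edgeR had 0 higher of these 22 and 1 higher and 1 lower of these 11, and DESeq2 and limma-voom called 0 higher in both. The 2 short core genes that rose are Atp5g3 and Atp5e.

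**Figure D5:**
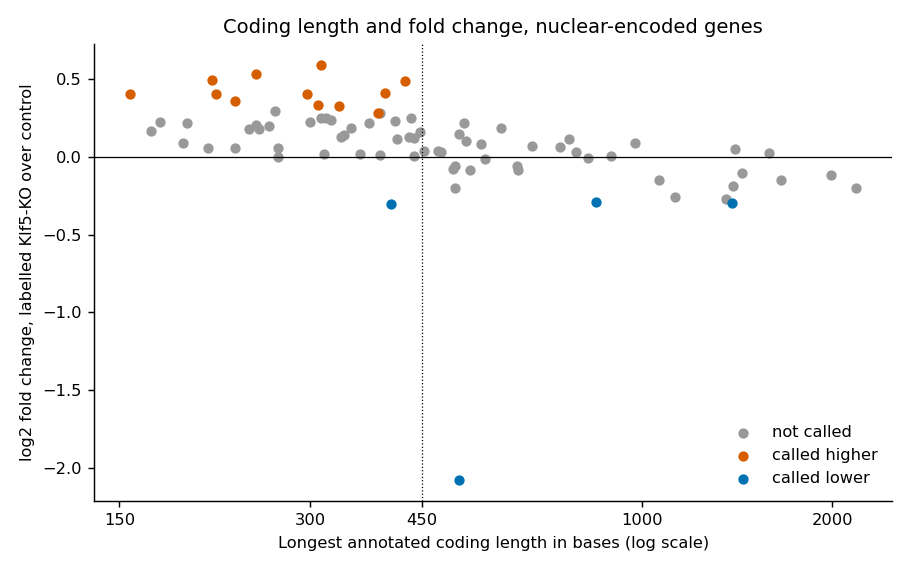
Log2 fold change of the libraries labelled Klf5-KO over control against the longest annotated coding length (log scale) for 80 nuclear-encoded subunit genes, with called genes in colour. The dotted line marks 450 bases, and all 12 genes that rose lie to its left.

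RefSeq promoter windows (GRCm38.p6, 250 bases before to 50 after a start) were at hand for 66 of the 89 nuclear genes, 71 windows in all. Short words that known regulators of respiratory genes bind were searched on both strands, and words may overlap. The NRF1 word (GCGC, any base, then TGCGC) was in 25.4% of the windows of the nuclear genes and in 6.61% of 20131 windows of protein-coding genes. The ETS word CCGGAAG, as bound by GABP, was in 22.5% against 11.9%, and the YY1 word AAGATGGCG in 9.86% against 1.93%. The GC box GGGCGG, of the kind that SP and KLF proteins bind, was in 38.0% against 47.8%, and the word CCACCC in 32.4% against 34.1%. Of 9 genes with a window that rose, 3 had the NRF1 word, 4 the ETS word and 5 the GC box. Of 2 that fell, 0, 1 and 2 did, and of 53 that were not called 14, 11 and 18 did. As examples, the stretch from 150 bases before to 30 after the start is shown for Atp5g3 (chr2:73911297-73911476, minus strand), which rose, and Sdhb (chr4:140961121-140961300, plus strand), which fell. Capitals mark the NRF1 word in Atp5g3 and, in Sdhb, 2 GC boxes on the reverse strand followed by the ETS word.

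Atp5g3: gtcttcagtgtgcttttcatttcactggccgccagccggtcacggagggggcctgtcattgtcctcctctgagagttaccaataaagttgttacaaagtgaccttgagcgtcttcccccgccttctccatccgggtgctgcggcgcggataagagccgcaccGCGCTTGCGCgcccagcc
Sdhb: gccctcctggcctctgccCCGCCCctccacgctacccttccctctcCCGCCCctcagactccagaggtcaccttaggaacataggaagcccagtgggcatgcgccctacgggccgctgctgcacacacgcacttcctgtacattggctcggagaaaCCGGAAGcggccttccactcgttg

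The genes of the factors that are named for these words did not pass the test. Nrf1 measured 49.2, 49.2 and 46.6 CPM against 45.1, 50.2 and 47.0 CPM (log2 fold change -0.03), and Gabpa and Yy1 had -0.20 and 0.01. Among 19 tested regulators of mitochondrial genes, 3 rose and 3 fell (15.8% each, against 13.3% and 12.5% of all tested genes). The coactivator gene Ppargc1a, which encodes PGC-1alpha, rose most, from 8.58, 9.93 and 12.8 CPM to 43.9, 42.8 and 38.4 CPM, a log2 fold change of 2.00 (SE 0.15, adjusted p = 3.8e-05). Its relative Ppargc1b fell by 0.42 on the log2 scale (63.8, 68.6 and 71.6 CPM against 50.7, 53.9 and 48.2 CPM, adjusted p = 0.0073). Of their nuclear receptor partners, Esrra rose by 0.29 and Esrrg by 0.33. Perm1, a regulator of the same list that is not a nuclear receptor, fell by 1.52 at 0.421 to 2.81 CPM. Myc fell by 0.72, from 271, 295 and 255 CPM to 141, 182 and 177 CPM (adjusted p = 0.0022).

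Genes that build or feed the chain were mixed. Of 49 tested assembly factors 6 rose and 5 fell (12.2% and 10.2%, near the 13.3% and 12.5% of all tested genes), with a median log2 fold change of -0.02. The complex II factor Sdhaf3, which serves the iron-sulfur subunit Sdhb, rose by 1.24 (5.19, 5.82 and 5.63 CPM against 13.2, 12.7 and 13.3 CPM, adjusted p = 1.2e-04). Cox16 of complex IV rose by 0.64 and Uqcc2 of complex III by 0.52, while Bcs1l, which inserts the Rieske protein, fell by 0.48.

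Of 30 genes for mtDNA maintenance and expression 0 rose and 3 fell, with a median of -0.08. These are 0% and 10%, against 13.3% and 12.5% of all tested genes. At an unadjusted p under 0.05 edgeR had 1 higher, and DESeq2 and limma-voom called 0 higher. The mtDNA helicase gene Twnk fell by 0.47 (59.6, 66.8 and 54.9 CPM against 42.7, 43.2 and 44.9 CPM, adjusted p = 0.0060), and Grsf1, for an RNA granule protein, by 0.41. Of 77 mitochondrial ribosomal protein genes 2 rose and 4 fell (2.6% and 5.2%).

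Among 20 genes of ubiquinone synthesis and cytochrome c, 3 rose and 2 fell (15% and 10%, against 13.3% and 12.5% of all tested genes). The somatic cytochrome c gene Cycs rose by 0.51 (102, 88.4 and 107 CPM against 135, 147 and 143 CPM, adjusted p = 0.0043), and Sqor, for an enzyme that passes electrons from sulfide to ubiquinone, fell by 1.58. In the citric acid cycle and pyruvate dehydrogenase list, 2 of 24 rose and 6 fell (8.33% and 25%). Pdk4, for a kinase that inhibits pyruvate dehydrogenase, rose by 1.35, and Pdk1 and Pdk2, for kinases of the same family, fell by 0.63 and 1.06. Of 24 carriers and membrane genes, the ADP/ATP carrier gene Slc25a4 rose by 1.56 (15.3, 21.9 and 19.8 CPM against 47.4, 64.7 and 55.5 CPM, adjusted p = 1.6e-04) and Ucp2 fell by 0.35. Of 5 subunit genes or close partners whose symbols the choice of genes does not cover, Higd1a and Usmg5 rose by 0.48 and 0.47 and the others did not pass.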

How the data were processed

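The 6 libraries were grouped by their titles. The authors deposited raw read counts for each gene. Alignment was by STAR 2.5.2a to mm10, per the submitters' processing notes, and counting by featureCounts 1.4.3-p1 with GENCODE vM16, reverse-stranded, per the file headers. Nuclear copies of mtDNA can take or remove reads of mtDNA genes under such counting. Symbols and coding lengths came from GENCODE vM21 (53274 of 53379 IDs matched), and gene coordinates from the files.

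The test was edgeR's quasi-likelihood F test (edgeR 4.0.16, R 4.3.3) with TMM scaling and no covariate, on the 19339 genes that filterByExpr kept. Benjamini-Hochberg adjustment ran over all of them, and a gene passed or was called under an adjusted p of 0.05. The SE is the size of the log2 fold change over the square root of F, and CPM values use TMM-scaled sizes. The biological coefficient of variation came to 17%. Sums over several genes were given no p-value. The fit was checked on simulated counts. DESeq2 1.42.0, limma-voom (limma 3.58.1), other scalings and filters, a replicate block, an offset for exon length, a stricter threshold and leaving out libraries were the alternatives.

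The genes and lists were chosen with earlier results of these data known. Named were Klf5, all mtDNA genes, the nuclear genes that passed, the 2 highest per kilobase in each complex, tissue isoforms with their partners, the c subunit genes, and up to 3 called genes of each other list by adjusted p. Other names, such as the remaining genes of a core or of a list, were added after values were seen, and 1 gene that the rule names is not reported here.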

Additional observations from a re-analysis of the deposited data

How the results depend on the processing

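No mtDNA gene was called lower in any of 19 alternatives, and the median log2 fold change stayed above 0 in all of them (0.06 to 0.17 for nuclear genes, 0.22 to 0.44 for mtDNA genes). At an adjusted p under 0.01, 1226 genes were higher and 1118 lower, with 3 nuclear genes higher, 1 lower and 0 mtDNA genes higher. Leaving out 1 library gave 1605 to 2740 higher and 1467 to 2664 lower genes, 4 to 25 nuclear genes higher, 1 to 4 lower, and 0 to 4 mtDNA genes higher. With control replicate 3 and the library labelled Klf5-KO replicate 2 both left out, 21 nuclear genes were higher, 2 lower, and 0 mtDNA genes higher. For mtDNA genes higher, no filter gave 7 and DESeq2 6. For mt-Co3 the log2 fold change was -0.261 to 0.079 over single libraries left out, with 0.012 without control replicate 1 and 0.079 without the library labelled Klf5-KO replicate 1. The summed nuclear difference was -21.3 CPM without control replicate 1, and -21.3 to 736 CPM over single libraries left out. The mtDNA share differed by 0.511 to 0.869 percentage points. The causes were not tested.

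Replicates with the same number did not vary together (correlations of -0.0095, 0.0055 and -0.0408 for numbers 1, 2 and 3). The replicate block gave 2286 higher and 2088 lower genes, 12 and 4 of the nuclear genes and 3 of the mtDNA genes higher. At this depth Cox4i2, with 6 to 52 counts, and the untested isoforms are limited by counting.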

Other observations

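The tRNA genes of mtDNA, which lie between the subunit genes on the same precursors, had totals of 1179, 828 and 842 counts in the control libraries, by replicate number, against 2454, 2341 and 1431 in those labelled Klf5-KO. In scaled units this was 13.5 ± 2.7 and 30.7 ± 9.5 CPM (SD, n = 3 each), with no overlap between the groups.

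The mitochondrial ribosomal RNA genes mt-Rnr1 and mt-Rnr2 varied far more between libraries than the subunit genes, at a summed 5.57, 34.6 and 137 CPM in the control libraries and 126, 178 and 9.24 CPM in the others. Ribosomal RNA was removed when the libraries were made, per the labels' protocols, and neither gene passed the test. The annotated nuclear copies of mtDNA on chromosome 1 had log2 fold changes of 0.05 to 0.75, and 0 of the 7 tested passed by edgeR, with 1 higher and 0 lower at an unadjusted p under 0.05, 1 called higher by DESeq2 and 0 by limma-voom. Where a copy and its mtDNA gene are identical, their reads cannot be told apart. Gm29216 and Gm28439 copy only part of mt-Co1 and mt-Nd4.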
